A study of Homo sapiens with 2 samples.

Results

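The 10 genes described here encode cytokines and chemokines that activated B cells can secrete or carry on their surface: the chemokines CCL3, CCL4 and CCL22, the tumour necrosis factor (TNF) family ligands LTA, LTB and TNF, and IL10, EBI3, IL32 and IL16. They were taken by symbol from both RPKM tables, which list 19096 gene symbols, and where a symbol had several rows the one with the largest mean over both libraries was used. Values are RPKM, in which the reads of a transcript are divided by its length and by the size of the library. Poly(A)-selected RNA came from P493-6, a B cell line of human origin labelled as B-cell lymphoma and grown in RPMI medium with FBS, in which tetracycline represses a c-Myc transgene. The low c-Myc group is 1 library at 0 h of release from repression and the high c-Myc group is 1 library at 24 h, called the 0 h and 24 h libraries below. Both groups come from this 1 cell line and carry the transgene.

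With 1 library per group, no difference below has a replicate check and no test between the conditions was made. Differences are therefore described by size, with 2-fold as the limit, and intervals cover counting error only. From the spacing of the smallest RPKM values, the depth was about 103000000 reads at 0 h and 105500000 at 24 h. MYC, the gene whose level defines the groups, had an RPKM of 836 at 0 h and 2358 at 24 h. All 7 B cell markers examined were above an RPKM of 1 in both libraries, among them MS4A1, CD79A, CD79B and PAX5. Synthetic RNAs added by cell number had a median RPKM 5.88-fold higher at 0 h, so a gene with the same RPKM in both libraries had 5.88 times as much RNA per cell at 24 h.

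Cytokines are small secreted or membrane-bound proteins through which immune cells signal, and chemokines are those that direct cell migration through G protein-coupled receptors. In B cells carrying Epstein-Barr virus or stimulated through CD40, NF-kB transcription factors are known to drive several of them, among them CCL22, LTA, LTB, TNF and EBI3. LTA, TNF and LTB are neighbouring genes on chromosome 6, CCL3 and CCL4 are neighbours on chromosome 17, and CCL22 lies beside CX3CL1 on chromosome 16, by the order of protein-coding genes in RefSeq (GRCh38.p14).

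The stretches of 250 bases before the gene start are shown for the 2 most abundant members (CCL22 and LTB), for the member with the highest ratio (IL32) and for TNF, the neighbour of LTB. They are from RefSeq on GRCh38.p14, whereas the deposited values were made on hg18, and they run 5′ to 3′ on the strand of the gene. Capitals mark matches, on either strand, to the kappa B consensus, the motif bound by NF-kB. The CCL22 window is chr16:57358533-57358782 (plus strand), the LTB window chr6:31582426-31582675 (minus strand), the IL32 window chr16:3065153-3065402 (plus strand, the more upstream of 2 listed starts) and the TNF window chr6:31575315-31575564 (plus strand).
CCL22: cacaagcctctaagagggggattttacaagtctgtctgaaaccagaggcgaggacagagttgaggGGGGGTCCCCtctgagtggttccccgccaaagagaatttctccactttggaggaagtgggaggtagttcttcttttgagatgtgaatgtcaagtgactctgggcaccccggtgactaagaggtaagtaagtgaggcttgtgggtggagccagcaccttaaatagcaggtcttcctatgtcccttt
LTB: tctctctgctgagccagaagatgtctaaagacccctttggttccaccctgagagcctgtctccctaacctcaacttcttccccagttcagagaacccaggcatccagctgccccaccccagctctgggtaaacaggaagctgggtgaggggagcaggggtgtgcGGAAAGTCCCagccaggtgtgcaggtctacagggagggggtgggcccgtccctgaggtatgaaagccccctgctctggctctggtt
IL32: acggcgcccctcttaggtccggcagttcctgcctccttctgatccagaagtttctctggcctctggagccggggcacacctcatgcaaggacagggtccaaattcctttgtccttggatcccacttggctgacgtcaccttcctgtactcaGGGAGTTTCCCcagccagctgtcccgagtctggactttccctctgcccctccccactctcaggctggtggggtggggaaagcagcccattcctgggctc
TNF: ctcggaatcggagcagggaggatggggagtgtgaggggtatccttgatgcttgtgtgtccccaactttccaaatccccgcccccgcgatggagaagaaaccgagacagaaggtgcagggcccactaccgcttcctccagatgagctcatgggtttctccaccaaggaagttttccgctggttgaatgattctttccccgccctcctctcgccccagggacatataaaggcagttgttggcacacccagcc
In LTB the match begins 86 bases before the start, in CCL22 it begins 185 bases before it, and the IL32 run is a pair of overlapping matches. The TNF window holds no match to this motif and holds TATAAA 29 bases before the start. RefSeq windows were found for 9 of the 10 genes, 17 windows in all, and those of 4 genes (CCL22, IL32, LTA and LTB) held the kappa B consensus, in 5 of the 17 windows, against 5.21% of 35116 windows of the same length. The 2 LTB windows are shifted by 1 base and hold the same match, and windows of other genes can overlap in the same way, so the windows are not separate sites. TATAAA, searched on both strands, was in a window of 4 genes (CCL3, IL10, LTA and TNF), in 4 of the 17 windows, against 10.7% of all windows. CACGTG, an E-box that MYC can bind, was in 1 window, at a more downstream start of CCL3, against 6.34% of all windows. A match is a description of the letters and not a measured binding site.

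The 10 genes spanned a wide range of levels, and their order was the same in both libraries. RPKM is a value per transcript length, so levels can be set beside each other within a library. CCL22, a chemokine that attracts T cells through the receptor CCR4, was the most abundant of the 10, at an RPKM of 693 at 0 h, where it ranked 23 of 10272 expressed genes (mean RPKM of at least 1 over both libraries), and 354 at 24 h, where it ranked 75. LTB, the membrane-bound lymphotoxin chain, came next at 214 and 262, ranking 121 and 122. EBI3 (77.5 and 116), IL32 (47.4 and 106) and IL16 (37.6 and 14.4) followed. TNF (10.9 and 6.76) and LTA (10.1 and 6.11) stood close together, with TNF 1.07-fold above LTA at 0 h and 1.11-fold above it at 24 h (95% counting interval 1.01 to 1.21). CCL3 and CCL4 were at the bottom of the detected genes, and their order at 24 h lay within counting error (CCL3 over CCL4 1.26, interval 0.51 to 3.17). When all rows of a symbol were averaged, LTB and IL32 traded places between the libraries, since LTB has rows listed at 0.

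**Figure D1:**
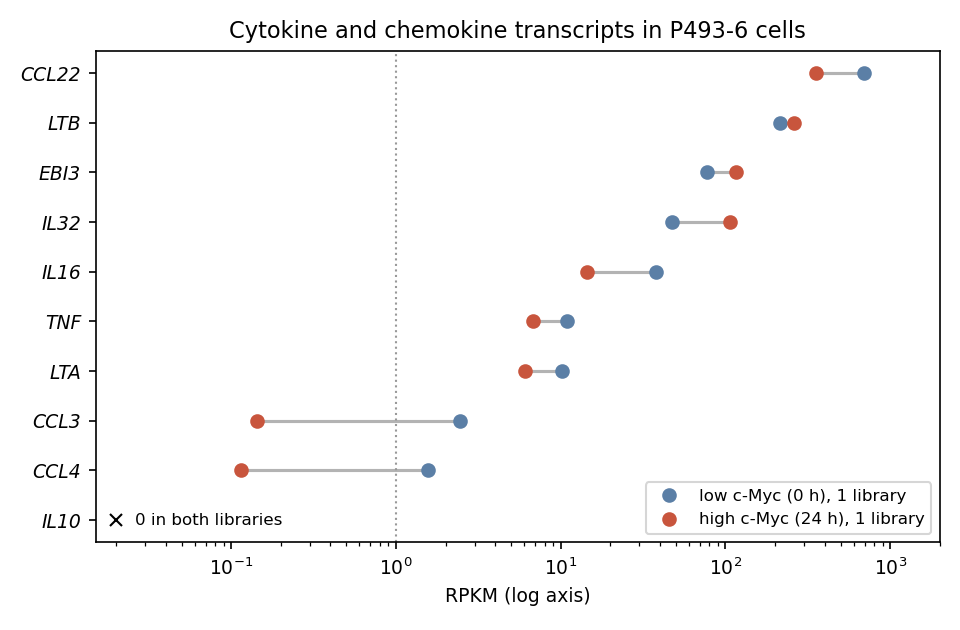
RPKM of each gene (log axis) at 0 h (blue) and at 24 h (red), 1 library each, with the dotted line at an RPKM of 1. The genes keep 1 order in both libraries, CCL3 and CCL4 cross the dotted line, and IL10, drawn as a cross at the left edge, was listed at 0 in both.

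The make-up of this pool of transcripts was different in the 2 libraries. The RPKM of the 10 genes summed to 1094 at 0 h and 866 at 24 h. CCL22 made up 63.3% of that sum at 0 h and 40.9% at 24 h. LTB went from 19.5% to 30.3%, EBI3 from 7.08% to 13.4% and IL32 from 4.33% to 12.2%, while IL16 went from 3.44% to 1.66%. The level of CCL22 was thus 3.24 times that of LTB at 0 h and 1.35 times at 24 h. These shares and levels are as deposited. Corrected for GC content, the log2 ratios of 24 h over 0 h were -1.02 for CCL22, -0.70 for LTB and 0.17 for EBI3. Without that correction they were -0.97, 0.30 and 0.59, so CCL22 and LTB stood closer together with it. Per cell, the sum was 4.66-fold higher at 24 h.

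**Figure D2:**
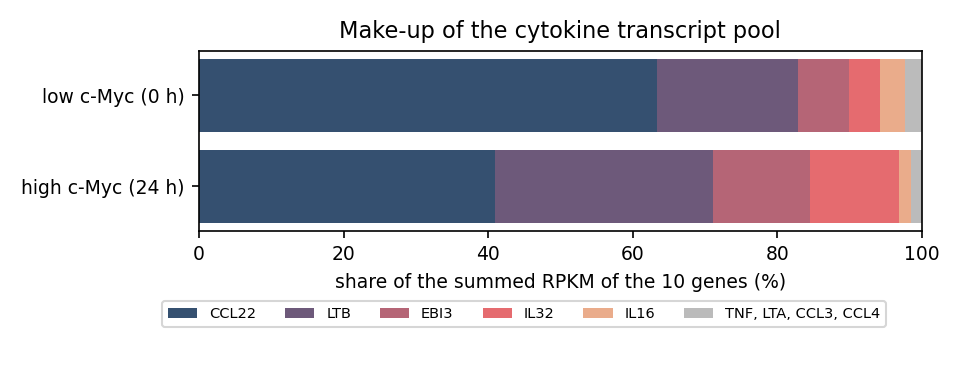
Share of the summed RPKM of the 10 genes (%) held by each gene in each library, with the 4 least abundant detected genes drawn as 1 grey segment. CCL22 holds 63.3% of the 0 h bar and 40.9% of the 24 h bar, and IL32 goes from 4.33% to 12.2%.

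On the deposited scale the comparison asks which of these transcripts differed in RPKM between 0 h and 24 h of c-Myc release. Ratios are log2(RPKM + 0.5) of high over low c-Myc, which understates differences of weakly expressed genes. Of the 10 genes, 8 had a mean RPKM of at least 1, and CCL3 was among them only through its level at 0 h. Of those 8, IL32 was at least 2-fold higher, against 24.9% of the 10272 expressed genes, and CCL3 and IL16 were at least 2-fold lower, against 9.74%. CCL4, with a mean RPKM of 0.84, was also more than 2-fold lower, and IL10 has no ratio. The median log2 ratio of the 8 was -0.67, against 0.22 over all expressed genes. RNA of a bulk culture does not tell fewer cells that make a transcript from less of it in each cell.

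On the deposited scale the 3 chemokines were all lower at 24 h, to very different degrees. CCL3, which draws monocytes and T cells through receptors such as CCR1, stood at an RPKM of 2.44 at 0 h and 0.14 at 24 h, on about 195 and 12 reads. That is 17.0-fold lower, a log2 ratio of -4.09 without a pseudocount (95% counting interval -5.03 to -3.22) and -2.19 with it. Only 0.72% of expressed genes had a lower ratio, a rank that is no separate support, since CCL3 passed the filter only through its 0 h level. CCL4, a related chemokine encoded next to CCL3, stood at 1.57 and 0.11, on about 146 and 11 reads, 13.8-fold lower (log2 ratio -3.79 without a pseudocount, interval -4.80 to -2.88). The level of each was thus above an RPKM of 1 at 0 h and far below it at 24 h.

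Near-identical copies of these 2 chemokine genes showed the same direction, although reads of such copies cannot be assigned with certainty. CCL4L1 and CCL4L2 had the same values as each other, with a highest row of 1.59 at 0 h and 0.30 at 24 h. CCL3L1 and CCL3L3 had highest rows of 0.38 each at 0 h and were listed at 0 at 24 h. CCL22 differed less than CCL3 and CCL4, being 1.96-fold lower (log2 ratio -0.97, counting interval -0.98 to -0.96), just inside the 2-fold limit. It passed that limit when the ratios were centred on the median of expressed genes (-1.19), scaled to the same RPKM sum (-1.28), quantile normalized (-1.13) or corrected for GC content (-1.02).

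Of the 3 TNF family ligands, TNF and LTA were lower and LTB slightly higher at 24 h as deposited. This split in sign did not hold after the GC correction, under scaling to the same RPKM sum or quantile normalization, or per cell. LTB still stayed well above TNF (-0.94 and -0.96) and LTA (-0.98 and -0.98) under those 2 scalings, and above both per cell. After the GC correction TNF (-0.75) and LTA (-0.88) were close to LTB. TNF, a secreted trimer that signals inflammation and survival, stood at an RPKM of 10.9 at 0 h and 6.76 at 24 h, 1.61-fold lower (log2 ratio -0.65). LTA, the soluble lymphotoxin, stood at 10.1 and 6.11, 1.66-fold lower (log2 ratio -0.69). Their counting intervals, taken without a pseudocount, overlapped, at -0.79 to -0.58 for TNF and -0.85 to -0.61 for LTA. LTB, which joins LTA in the membrane-bound lymphotoxin that organizes lymphoid tissue, stood at 214 and 262, 1.23-fold higher, with a log2 ratio of 0.30 as deposited, 0.07 after centring, -0.02 after scaling to the same RPKM sum, -0.001 after quantile normalization and -0.70 after the GC correction. The level of LTB was 21.0 times that of LTA at 0 h and 42.9 times at 24 h (40.2 to 45.9). These 2 levels and the interval are as deposited, without the GC correction that brought the log2 ratios of LTB and LTA close.

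The rows of these genes repeat accessions. TNF had 3 rows and LTA and LTB had 6 each, of which 1, 2 and 2 were above 0, and the remaining rows were listed at 0 in both libraries. The 2 LTA accessions above 0 were 1.66-fold and 1.67-fold lower, and the 2 LTB accessions were both 1.23-fold higher.

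The interleukins and related cytokines held both the highest ratio of the 10 genes and one of the lowest. IL32, a cytokine of lymphocytes and epithelia that can induce TNF, stood at an RPKM of 47.4 at 0 h and 106 at 24 h, 2.23-fold higher (log2 ratio 1.15, counting interval without a pseudocount 1.11 to 1.21). All 8 of its accessions were higher, by 2.23-fold to 2.31-fold, from 36.1 to 47.4 at 0 h and from 80.9 to 106 at 24 h, and these overlapping transcripts are not independent measurements. IL32 fell short of 2-fold after centring (0.93), after scaling to the same RPKM sum (0.84) and after quantile normalization (0.56), and 21.3% of expressed genes had a higher ratio. EBI3, the Epstein-Barr virus induced subunit of dimeric cytokines of the IL-12 family, stood at 77.5 and 116, a log2 ratio of 0.59 (counting interval without a pseudocount 0.55 to 0.63) that came to 0.17 after the GC correction and 0.05 after quantile normalization.

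IL16, whose precursor is cleaved to a chemoattractant for CD4+ cells, went the other way. It stood at an RPKM of 37.6 at 0 h and 14.4 at 24 h, 2.62-fold lower (log2 ratio -1.36, counting interval without a pseudocount -1.44 to -1.33). Its 3 accessions were all 2.62-fold lower. It ranked 1136 at 0 h and 4017 at 24 h, and 4.69% of expressed genes had a lower ratio. IL32 and IL16 stood within 1.26-fold of each other at 0 h, whereas IL32 was 7.37-fold above IL16 at 24 h. IL10, an anti-inflammatory cytokine that some B cells secrete, was listed at 0 in both libraries. At these depths 3 reads would correspond to an RPKM of about 0.018 at 0 h and 0.017 at 24 h.

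Per cell, by contrast, 7 of the 8 genes were at least 2-fold higher at 24 h and none was 2-fold lower, against 97.1% and 0.0876% of expressed genes. These counts have the pseudocount added before the synthetic RNA scaling. Without a pseudocount 1 of the 8, CCL3, was at least 2-fold lower, against 0.175%. Here the median over 46 synthetic RNAs, a log2 ratio of -2.56 (SD 0.54 over these RNAs), was subtracted. IL32 was 13.1-fold higher per cell, EBI3 8.84-fold, LTB 7.23-fold, TNF 3.66-fold, LTA 3.54-fold, CCL22 3.01-fold and IL16 2.25-fold, all without a pseudocount. The median per-cell log2 ratio of the 8 genes was 1.89, against 2.78 over expressed genes. IL32, EBI3 and LTB were thus above that median, LTB only just (2.85), and CCL22, LTA, TNF and IL16 below it. After the GC correction, made on the deposited scale, LTB (-0.70) and EBI3 (0.17) were below the median of expressed genes (0.20).

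CCL3 and CCL4 stood apart from the other members on this scale. With the pseudocount added before the synthetic RNA scaling, CCL3 had a per-cell log2 ratio of 0.36 and CCL4 one of 0.80. Without a pseudocount CCL3 was 2.90-fold lower per cell (log2 ratio -1.53, counting interval -2.48 to -0.66) and CCL4 2.35-fold lower (-1.23, interval -2.24 to -0.33). The direction thus turned with the size and the place of the pseudocount. When added before the scaling, the pseudocount at 24 h is scaled up too, which raises the ratios of genes near 0. A pseudocount of 0.1 added there gave -0.83 for CCL3. Of the 10271 expressed genes above 0 in both libraries, 18 (0.175%) were at least 2-fold lower per cell without a pseudocount, 95.6% were at least 2-fold higher, and CCL3 was the 1 member of the 8 among the 18. CCL3 passed the filter only through its 0 h level, so its place among the 18 is no separate support for a difference. Adding the pseudocount after the scaling gave -1.13 for CCL3 and -0.82 for CCL4, with 95.1% of expressed genes higher and 0.175% lower. In the authors' own renormalized column CCL3 was listed at 1.09 and 0.32 at 0 h and 24 h and CCL4 at 0.70 and 0.26, 3.42-fold and 2.73-fold lower. That column gave 11.2-fold higher for IL32 and 1.80-fold higher for IL16.

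**Figure D3:**
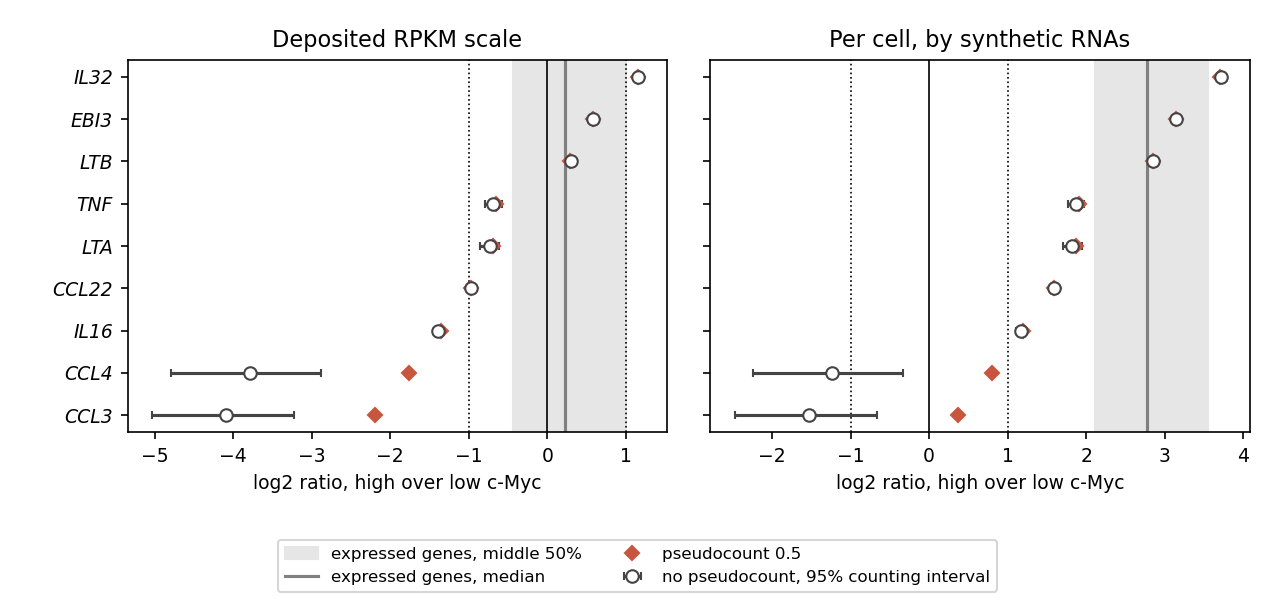
Log2 ratio of high over low c-Myc for the 9 detected genes on the deposited RPKM scale (left) and per cell (right). Open circles have no pseudocount and carry 95% counting intervals, red diamonds have a pseudocount of 0.5, grey shows the middle 50% and the median of expressed genes, and dotted lines mark 2-fold. CCL3 and CCL4 lie at the left of both panels, where the 2 kinds of point separate, and in the right panel they fall on opposite sides of 0.

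The receptors through which these cytokines act were mostly present, except that of membrane lymphotoxin, while those of the chemokines were weak. Of 12 receptor genes, 8 had a mean RPKM of at least 1, of which 2 were at least 2-fold lower on the deposited scale and none was higher, against 9.74% lower and 24.9% higher over expressed genes, with a median log2 ratio of -0.53. CCR1, one of the 2, and IL6ST passed the mean of 1 only through the 0 h library, and without a pseudocount 3 were lower, IL6ST being the other. For TNF and LTA, the receptor TNFRSF1B stood at an RPKM of 54.6 at 0 h and 60.9 at 24 h, TNFRSF1A at 10.9 and 9.64, and TNFRSF14, which also binds LTA, at 89.3 and 67.6. LTBR, the receptor of membrane lymphotoxin, was listed at 0 in both libraries, although LTB was the second most abundant of the 10 genes. For IL-10, whose transcript was at 0, IL10RA stood at 45.8 and 28.8 and IL10RB at 24.5 and 7.74, the latter 3.16-fold lower.

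Among the chemokine receptors, CCR1 stood at an RPKM of 2.44 at 0 h and 0.71 at 24 h, 3.44-fold lower. CCR4, the receptor of CCL22, stood at 0.02 and 0.13. CD4, the receptor of IL-16, stood at 0.82 and 0.20. IL27RA, which binds the dimer of EBI3 and the IL27 chain, stood at 17.9 and 20.5, and its partner IL6ST at 1.51 and 0.69.

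EBI3 acts as a dimer, and its partner chains were scarce. IL27 stood at an RPKM of 0.02 at 0 h and 0.03 at 24 h, and IL12A at 0.32 and 1.95, which passed the mean of 1 only through the 24 h library and was 6.16-fold higher there. The level of EBI3 was 245 times that of IL12A at 0 h (counting interval 184 to 328) and 59.8 times at 24 h (53.4 to 67.0). ADAM17, the protease that sheds TNF from the membrane, stood at 20.5 and 6.70, 3.06-fold lower.

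Other cytokine genes were mostly silent in these cells. Of 33 other chemokines, 4 had a mean RPKM of at least 1, and 18 were listed at 0 in both libraries. None of the 4 was 2-fold higher or lower in log2(RPKM + 0.5), against 24.9% and 9.74% of expressed genes. CCL17, which shares CCR4 with CCL22 and lies near it on chromosome 16, stood at 94.4 at 0 h and 80.7 at 24 h, so that CCL22 was 7.34 times and 4.39 times as abundant. CCL5, CCL25 and CXCL10 were the remaining 3, with log2 ratios of -0.17, -0.94 and 0.40. CCL25, at an RPKM of 3.95 and 1.82, was 2.17-fold lower without the pseudocount. Of 37 other interleukins and growth factors, 5 passed, 2 were at least 2-fold higher and none lower, against the same 24.9% and 9.74%. TGFB1, an inhibitor of lymphocyte growth, was one, at 41.6 and 139 (log2 ratio 1.72, and 0.80 after the GC correction). IL12A, which passed only through the 24 h library, was the other. IL23A (-0.86) and CLCF1 (-0.35) had the lowest ratios of that list, and IL23A, which passed only through the 0 h library, was 2.36-fold lower without the pseudocount.

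Among 15 other TNF family ligands, 6 passed, 1 was at least 2-fold higher and 1 lower, against 24.9% and 9.74% of expressed genes. Their median log2 ratio was -0.34. The higher gene was TNFSF14, the ligand LIGHT, at an RPKM of 2.25 at 0 h and 9.40 at 24 h (log2 ratio 1.85), and the lower was TNFSF10, the death ligand TRAIL, at 6.50 and 1.24 (-2.01). CD70, a costimulatory ligand of B and T cells, was the most abundant, at 137 and 182, with a log2 ratio of 0.41, or -0.06 when corrected for GC content. TNFSF4, the OX40 ligand, stood at 3.45 and 1.71, 2.02-fold lower without the pseudocount and -0.84 as a log2 ratio with it.

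The median ratio of NF-kB genes was near that of expressed genes as a whole. Of 16 NF-kB subunits and targets, 3 were at least 2-fold higher and none lower, against 24.9% and 9.74% of expressed genes. Their median log2 ratio was 0.14, against 0.22 over all expressed genes. The higher genes were NFKBIB (3.58), an inhibitor of NF-kB, SOD2 (2.71), a mitochondrial superoxide dismutase, and RELB (1.52), an NF-kB subunit whose ratio was 0.29 after the GC correction. The subunits NFKB1, REL and RELA had log2 ratios of 0.06, -0.06 and 0.23, and the lowest of the list were BCL2A1 (-0.92), an antiapoptotic gene, and CD40 (-0.75). Of 16 genes of TNF receptor signalling, 1 was higher and 3 were lower, against 24.9% and 9.74% of expressed genes, with a median of -0.003. TRAF2, an adaptor of the TNF receptors, stood at an RPKM of 14.9 and 47.0 (log2 ratio 1.63), and the ubiquitin ligase subunit RBCK1 followed at 0.73. The lowest were CYLD (-1.10), a deubiquitinase that restrains NF-kB, and TAB2 (-1.05), and BIRC2 (-1.03), named after its value was seen, was the other lower gene. After the GC correction CYLD (-0.81), TAB2 (-0.64) and BIRC2 (-0.47) were no longer 2-fold lower. TRAF2 then stood at 1.01, just past the limit, and RBCK1 at -0.38. RIPK1, a kinase of TNF receptor signalling that was also named after its value was seen, was 2.17-fold lower without the pseudocount, at a log2 ratio of -0.91 with it.

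**Figure D4:**
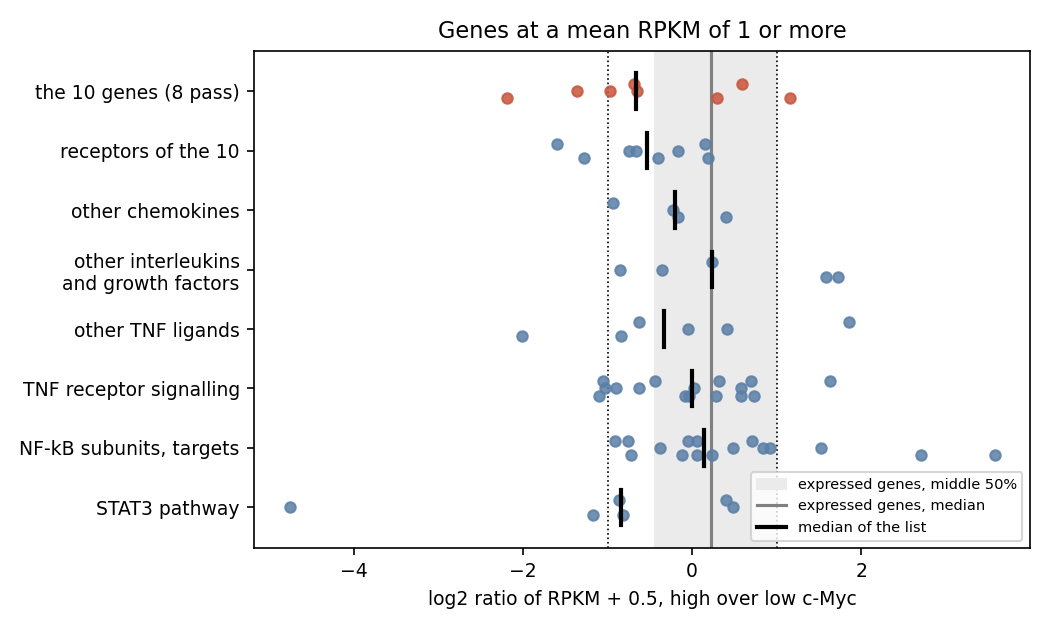
Log2 ratio of RPKM + 0.5, high over low c-Myc, for genes with a mean RPKM of at least 1 in each list, with 1 point per gene and black bars at the medians. The medians lie at -0.67 for the 8 cytokine genes, -0.53 for their receptors and 0.14 for the NF-kB genes, and the grey line marks the median of all expressed genes, 0.22.

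On the deposited scale, the markers of other cell types that also make CCL3, CCL4 and TNF had lower summed RPKM at 24 h. Of 7 T cell markers, the 3 whose mean RPKM reached 1 (CD3E, CD3G and CD2) were all at least 2-fold lower, CD3G and CD2 having passed only through the 0 h library, and the summed RPKM of the list was 12.6 at 0 h and 2.05 at 24 h. CD3D, CD8A and TRAT1 were listed at 0 in both libraries. Of 8 myeloid markers, the 3 that passed (LYZ, CD68 and ITGAM) were all lower, and the sum was 151 and 35.6. The defining myeloid genes S100A8, S100A9 and FCGR1A were listed at 0 in both, and CD14 stood at 0.07 in each. The sum of 6 NK cell markers was 10.6 and 5.20, most of it PRF1 (8.93 and 4.88), which was less than 2-fold lower. Over all expressed genes 9.74% were at least 2-fold lower. Per cell, with the pseudocount added before the scaling, no T cell, myeloid or NK cell marker that passed was at least 2-fold lower, against 0.0876% of expressed genes. The median per-cell log2 ratios were 0.51 for the T cell and 0.20 for the myeloid markers, and PRF1 had 1.75. CCL3 had 0.36 under the same setting. As deposited, the B cell markers were lower as well, with 3 of 7 at least 2-fold lower and a summed RPKM of 3278 and 1276. The part of any such cells in the values of CCL3, CCL4 and TNF was not tested.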

How the data were processed

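Total RNA of P493-6 cells received synthetic RNAs by cell number, poly(A) RNA was selected, and strand-marked (dUTP) libraries received 15 PCR cycles, per the labels' protocols. Bowtie and hg18 are named in the submitters' processing notes. The sources used here do not name the counter, the filters or the strand setting, so reads of overlapping or near-identical genes cannot be told apart. The authors deposited RPKM values and an RPKM signal renormalized to the synthetic RNAs, per the file headers. The renormalized column was used as an alternative and for values credited to it.

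Each table had 34286 rows, 92 of them for synthetic RNAs. Ratios used a pseudocount of 0.5 RPKM and genes with a mean RPKM of at least 1 (10272). Per-cell ratios subtracted the median over the 46 synthetic RNAs whose RPKM reached 1 in each library. Each group had 1 library and RPKM are not counts, so no test was run. Approximate reads were RPKM times GENCODE 29 transcript length times the implied depth. Of 3261 and 2344 transcripts with up to 20 reads at 0 h and 24 h, 49.2% and 46.2% lay within 0.05 of a whole number. At a fixed depth 10% would do so by chance. The depth was chosen to give the largest such share, so this 10% is not the matching chance level. The GENCODE lengths are not the authors', so reads and their exact binomial intervals (95%) are approximate. The GC correction subtracted a lowess curve (fraction 0.3) over the 9949 expressed genes (96.9%) with a GC value.

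The members and lists were chosen with earlier results of these data known. All 10 members are named. Some genes of the other lists are not reported here. In the receptor, chain partner and near-identical copy lists every gene could be named, and in the others the 2 highest and 2 lowest ratios and genes at an RPKM of 10 or more. Genes of signalling downstream of IL-10, with JAK1, TYK2, STAT3, SOCS3 and BCL3 among them, formed a further list, and markers covered B, T, NK, myeloid and plasma cells, red cells, platelets, fibroblasts and epithelium. Procedures were tested on simulated data. Python 3.11.15, numpy 2.4.6, pandas 2.3.3, scipy 1.17.1, statsmodels 0.14.6 and matplotlib 3.10.9 were used.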

Additional observations from a re-analysis of the deposited data

How the results depend on the processing

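No paired analysis was possible because each group has 1 library. On the deposited scale the count of members at least 2-fold higher, 1 as reported, was 0 after centring, 0 after scaling to the same RPKM sum and 0 after quantile normalization, while the count at least 2-fold lower, 2 as reported, was 1 with a mean RPKM of at least 5, which leaves out CCL3, 3 under each of the 3 scalings just named and the GC correction, all of which add CCL22, and 3 with no filter, which adds CCL4. Over all expressed genes higher genes made up 71.8% of those at or beyond 2-fold as deposited, 57.3% after centring, 53.2% after scaling to the same RPKM sum and 50.1% after quantile normalization. Per cell the count of members at least 2-fold lower, 0 as reported, was 1 without a pseudocount and 1 with the pseudocount added after the scaling, an alternative chosen after seeing the data. Of 63 genes in the partner lists, 9 were at least 2-fold lower as reported, 13 with a pseudocount of 0.1, 16 after centring and 20 after quantile normalization, against 9.74%, 11.3%, 14.8% and 17.2% of expressed genes, and with a mean RPKM of at least 5 there were 6 of 48, against 9.31%. The GC correction was not among the alternatives for the partner lists. The number of members whose place in the order of levels differed between the libraries was 0 as reported and 2 with the mean over all rows. Over these alternatives the deposited log2 ratio ran from -0.70 to 0.30 for LTB, from 0.56 to 1.17 for IL32, from -1.91 to -1.33 for IL16 and from -4.09 to -1.59 for CCL3, and the per-cell ratio of CCL3 from -1.53 to 0.97. CCL3 and CCL4 rest on about 12 and 11 reads at 24 h, which limits their ratios.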

Other observations

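Genes of signalling downstream of IL-10 differed in direction. Of 6 such genes, 2 were at least 2-fold lower and none was higher, against 9.74% and 24.9% of expressed genes, with a median log2 ratio of -0.84, against 0.22 over all expressed genes. JAK1, a kinase of the IL-10 receptor, stood at an RPKM of 37.2 at 0 h and 16.2 at 24 h (log2 ratio -1.17). SOCS3, a feedback inhibitor, had the lowest ratio of the list, at 41.4 and 1.04 (log2 ratio -4.76). STAT3, the transcription factor activated by IL-10, stood at 27.2 and 14.7 (log2 ratio -0.87). TYK2, another kinase, and BCL3, an NF-kB coregulator, had ratios of 0.49 and 0.40.

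As deposited, plasma cell markers differed in direction, and the activation markers with a mean RPKM of at least 1 were all lower at 24 h. Of 4 plasma cell markers, SDC1 had a log2 ratio of 1.97, IGJ one of -1.79, XBP1 one of 0.43 and PRDM1 one of -0.76. Thus 1 was at least 2-fold higher and 1 lower, against 24.9% and 9.74% of expressed genes. SDC1, at an RPKM of 0.19 at 0 h and 2.22 at 24 h, passed the mean of 1 only through the 24 h library. Of 5 markers of virus-carrying or activated B cells, 4 had a mean RPKM of at least 1. The log2 ratios were -0.75 for CD40, -0.68 for CD86, -0.67 for FCER2 and -0.16 for CD80 (0.15 after the GC correction). None of the 4 was 2-fold higher or lower, against 24.9% and 9.74% of expressed genes. FCER2, which encodes CD23, stood at an RPKM of 370 at 0 h and 233 at 24 h, and CR2 was below an RPKM of 1 in both. No erythroid or platelet marker and 2 of 4 fibroblast and epithelial markers had a mean RPKM of at least 1.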
